A study of Mus musculus with 6 samples.

Results

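The 4 GL261-GSCs libraries fell into pairs, and the difference between the pair made of replicates 1 and 2 and the pair made of replicates 3 and 4 is described here gene by gene. GL261 is an established mouse glioma line. GL261-GSCs are glioblastoma stem cells derived from it, grown as neurospheres in a defined medium, whereas the 2 GL261 libraries used as a reference came from cells in a medium with serum. The labels give no genotype, added agent, clone, passage or culture date, and all 4 GL261-GSCs libraries carry the same description apart from the replicate number. Each library was made by droplet capture with a 5' gene expression kit, and the labels leave undecided whether whole cells or nuclei were loaded.

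The 4 libraries are 4 of the 6 in the series. The sides were chosen from the expression values of these same libraries, so the difference between them was defined from the readout, and every value that sets 1 side against the other is a description with no test. The libraries entered through the sums of their UMIs (unique molecular identifiers, each standing for 1 captured RNA molecule) over called cells, meaning barcodes with at least 2500 UMIs, at least 500 genes and under 10% mitochondrial UMIs. Called cells numbered 4382, 5912, 7401 and 4067 in replicates 1 to 4, which is 21762 of the 31736 called cells of the series. Nothing in the labels says that the replicates came from separate cultures, so the spread between libraries may be technical.

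Genes of the oligodendrocyte precursor, the dividing glial cell that matures into myelin-forming oligodendrocytes, are commonly active in cultured glioma stem cells. Such cells use surface adhesion proteins, proteoglycans and receptor tyrosine kinases to contact their surroundings and to receive growth signals. Low oxygen stabilises hypoxia-inducible factors, which bind a short DNA core in front of genes for glycolysis, oxygen sensing, mitochondrial turnover and blood vessel growth.

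In replicates 3 and 4, genes of hypoxia and glycolysis, neural adhesion proteins, axon guidance proteins and several precursor markers were higher than in replicates 1 and 2. Single genes such as Tnc, Depdc7, Mgst1 and Pdlim4 lay the other way. Levels are counts per 1000000 UMIs of the called cells (CPM), scaled with TMM factors. A gene is called separated when every library of 1 side lay at least 2-fold above every library of the other on the log2(CPM + 1) scale and its mean over the 4 libraries was at least 10 CPM. Of 8912 genes at that level, 145 (1.63%) were separated with the higher levels in replicates 3 and 4, and 71 (0.797%) with the higher levels in replicates 1 and 2. Without the 2-fold requirement, 2624 genes (29.4%) had no overlap and were higher in replicates 3 and 4, and 3447 (38.7%) had no overlap and were higher in replicates 1 and 2. Such a lack of overlap was thus common, and the counts of it given below are set beside these shares. The minimum of 10 CPM is a mean over the 4 libraries, so a gene can reach it through its higher side alone.

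The sides differed by more than the libraries within them. The root mean square log2 difference over the 8912 genes was 0.350 between replicates 1 and 2 and 0.261 between replicates 3 and 4. Between the sides it ran from 0.496 for replicates 2 and 3 to 0.698 for replicates 1 and 4. The 2 GL261 libraries were 0.166 apart, and each lay 0.957 to 1.20 from every GL261-GSCs library. The number of genes past 2-fold was 143 within replicates 1 and 2, 21 within replicates 3 and 4, and 342 to 905 for the pairs across the sides.

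**Figure D1:**
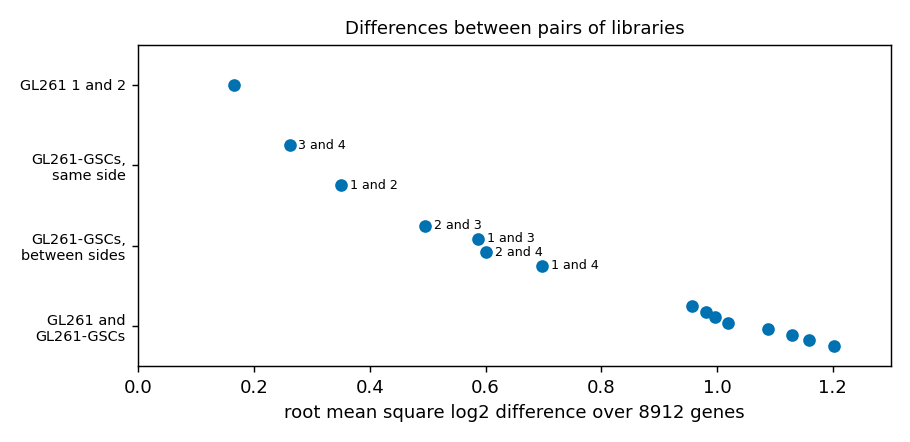
Root mean square log2 difference (x axis) between the 15 pairs of libraries, grouped by the kind of pair (y axis), each point being 1 pair and the numbers giving the GL261-GSCs replicates compared. Pairs within a side lie at 0.261 and 0.350, pairs across the sides at 0.496 to 0.698, and pairs of a GL261 and a GL261-GSCs library at 0.957 to 1.20.

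Several technical measures moved with the sides. Median UMIs per cell were 15182, 11850, 10513 and 7333 in replicates 1 to 4, and median genes per cell 4599, 4059, 3667 and 3016. Cells with at least 2.5% mitochondrial UMIs made up 19.3%, 14.1%, 27.7% and 34.3% of the called cells. The nuclear RNA Malat1 took a median of 0.233%, 0.279%, 0.375% and 0.703% of a cell's UMIs. Only 39.9% of the UMIs of replicate 4 lay in called cells, against 57.0% to 65.8% in the other 3. Replicates 3 and 4 were thus shallower per cell and held more mitochondria-rich cells, and the part of these differences in the gene results was not tested beyond the alternatives named beside them. Called barcodes shared by 2 GL261-GSCs libraries numbered 29 to 60, where chance gives 24.2 to 59.4. Just inside the UMI minimum, barcodes with at least 2500 and under 3000 UMIs numbered 80, 131, 305 and 358 in replicates 1 to 4, and just outside it, those with at least 2000 and under 2500 numbered 160, 159, 347 and 529.

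The 4 marker genes of the cultures, Cntn1, Ptprz1, Pcdh15 and Kit, were chosen with earlier results of these data known. They were at or near 0 in GL261 and present in all 4 GL261-GSCs libraries, which is therefore no independent check of the label. Cntn1 (contactin 1, an adhesion protein of neurons and oligodendrocyte precursors) lies on chromosome 15 at 92051165 to 92341967 (GRCm38, plus strand). Its level was 66.9, 144, 311 and 382 CPM in replicates 1 to 4 and 0 in both GL261 libraries. Ptprz1, a receptor phosphatase that carries chondroitin sulfate chains, stood at 173, 151, 352 and 434 CPM, with 0.131 and 0.0163 in GL261. Both genes were higher in replicates 3 and 4, by 1.80 and 1.27 on the log2 scale, and just passed the 2-fold rule. Among cells with under 2.5% mitochondrial UMIs alone, the gap between the nearest libraries of the sides was 0.99 for Cntn1 and 0.901 for Ptprz1, below the 1 that the rule asks for.

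Pcdh15 (chromosome 10, 73099342 to 74649737, plus strand), a protocadherin of precursors and sensory hair cells, was at 24.9, 6.06, 137 and 160.8 CPM, and at 0.0146 and 0.0163 in GL261. Replicate 2 was the lowest and replicates 3 and 4 the highest, with a log2 difference of 3.46. Gm15398, a gene that overlaps Pcdh15 on the other strand, was separated in the same direction, at 7.97, 9.08, 24.3 and 30.6 CPM. Its levels did not run parallel to those of Pcdh15, since it was at 3.89 and 4.41 CPM in GL261 and slightly higher in replicate 2 than in replicate 1. Strand use in counting was not stated in the sources used here, so reads from the stretch that both genes cover cannot be assigned to 1 of them. Kit (chromosome 5, 75574916 to 75656722, plus strand), the receptor of stem cell factor, went the other way at 117, 94.2, 59.4 and 46.5 CPM with 0 in GL261. Its sides did not overlap, yet they were less than 2-fold apart, and Kit was not separated. The gene for its ligand, Kitl, was separated in the opposite sense, with 30.2, 52.6, 116 and 121 CPM in replicates 1 to 4 and 213 and 203 in GL261.

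A comparison that the choice of sides did not use is that of all 4 GL261-GSCs libraries with the 2 GL261 libraries. By edgeR's quasi-likelihood test with Benjamini-Hochberg adjustment, 5673 of 18421 genes (30.8%) passed an adjusted p of 0.05, 3078 of them higher in GL261-GSCs and 2595 lower. Cntn1 (adjusted p = 0.00183), Ptprz1 (0.000365), Kit (0.000398) and Pcdh15 (0.00998) were all higher in GL261-GSCs in 4 of 4 libraries. As these markers were chosen with earlier results of these data known, their p-values are no independent support. The test treats the libraries as independent, although the GL261-GSCs libraries fell into pairs and the labels name no separate cultures. Its p-values therefore refer to the spread between libraries and not to a spread between cultures. The Pcdh15 call was lost in edgeR without GL261 replicate 1 (adjusted p = 0.0867) or without GL261 replicate 2 (0.0896), where a single GL261 library is assumed to vary like the others. The other 3 markers kept an adjusted p under 0.05 in edgeR and DESeq2 under each alternative tried.

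The markers also differed in how many cells held them. After each cell was thinned to 2000 UMIs, which removes the difference in depth, Cntn1 was found in 12.9% (95% exact Clopper-Pearson interval 11.9 to 13.9), 24.7% (23.6 to 25.8), 46.8% (45.7 to 48.0) and 55.1% (53.6 to 56.7) of cells in replicates 1 to 4. Ptprz1 was found in 29.4%, 26.7%, 51.1% and 59.0% of cells, Pcdh15 in 6.39%, 1.49%, 26.5% and 32.3%, and Kit in 20.9%, 18.2%, 12.6% and 10.8%. Unthinned, the Cntn1 shares were 48.4%, 69%, 86.8% and 86.7%. The share that free RNA alone would give for Cntn1 was 0.453%, 0.965%, 3.59% and 7.27%, estimated in near-empty barcodes holding 100 UMIs or more but fewer than 1000. No GL261 cell held a UMI of Cntn1. By the limit of 3 cells, this allows a share of cells with a UMI of up to 0.0607% and 0.0597% in GL261 replicates 1 and 2. It sets no limit on cells whose Cntn1 RNA was not captured. All 4 markers lay far above the free RNA level in every GL261-GSCs library. These intervals and limits cover counting error only.

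The 12 most separated genes in each direction, taken by the size of the gap between the nearest libraries, are described first, though not in the order of their gaps. Ncam1 (chromosome 9, 49502136 to 49798925, minus strand), the neural cell adhesion molecule, showed the widest gap. Its level was 1.41 and 1.11 CPM in replicates 1 and 2 and 81.0 and 119.6 in replicates 3 and 4, with 0.526 and 0.458 in GL261. The log2 difference was 5.46. Thinned cells with an Ncam1 UMI made up 0.320% and 0.254% of replicates 1 and 2 and 17.2% and 25.3% of replicates 3 and 4, where free RNA alone would give 0.672% and 2.01%. Replicates 1 and 2 were therefore close to GL261, in which 0.0809% and 0.0994% of cells held 1. Over all 4 libraries Ncam1 did not pass the edgeR test against GL261 (adjusted p = 0.0821).

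Its relative Ncam2 (chromosome 16, 81200697 to 81626828, plus strand) stood at 10.2, 13.2, 73.7 and 81.5 CPM and at 0 in GL261. Tmsb4x, which encodes the actin-binding peptide thymosin beta 4 on chromosome X, was at 71.2 and 139 CPM in replicates 1 and 2 and at 1073 and 1160 in replicates 3 and 4. GL261, at 55.6 and 48.3 CPM, resembled replicates 1 and 2. Dysf, the membrane repair protein dysferlin, was at 5.06, 3.34, 48.1 and 54.8 CPM. Gng3, a G protein gamma subunit of neurons, was at 4.67, 20.9, 120.2 and 222 CPM. Both were under 2 CPM in the GL261 libraries, so the highest levels in the series were those of replicates 3 and 4.

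Rhox5 (chromosome X, 37804842 to 37808876, plus strand), a reproductive homeobox gene, was uneven within 1 side. It stood at 47.2 CPM in replicate 1 and 4.33 in replicate 2, against 571 and 431 in replicates 3 and 4 and 19.4 in both GL261 libraries. Thinned cells with a Rhox5 UMI made up 6.94%, 0.626%, 64.9% and 56.4% of replicates 1 to 4, and free RNA alone would give 0.520%, 0.0457%, 10.5% and 9.01%. Col11a2 (chromosome 17, 34039437 to 34066685, plus strand), a fibrillar collagen chain of cartilage, was at 30.7, 28.8, 256 and 330.2 CPM, and at 27.6 and 32.7 in GL261. Fry, a large protein of cell shape and division, was at 0.181, 3.05, 52.0 and 90.7 CPM, and Ccdc141 was at 7.66, 10.4, 85.6 and 99. Bnip3 and Ankrd37, also among the 12, belong to the hypoxia genes described below.

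**Figure D2:**
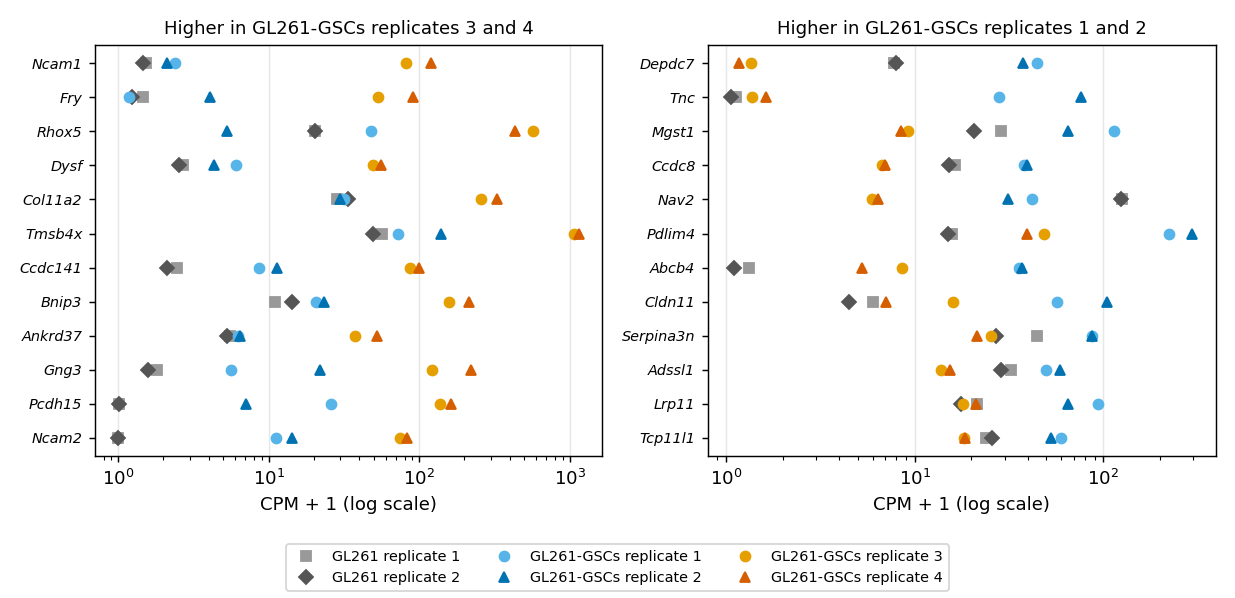
Level of the 12 most separated genes in each direction (CPM + 1, log x axis), with 1 point for each of the 6 libraries. In the left panel replicates 3 and 4 lie to the right of replicates 1 and 2, with Ncam1 at 81.0 and 119.6 against 1.41 and 1.11 CPM, and in the right panel the order is turned, with Tnc at 27.2 and 75.4 CPM in replicates 1 and 2.

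In the other direction, the widest gap was that of Depdc7 (chromosome 2, 104721784 to 104742878, minus strand), at 43.5 and 36.7 CPM in replicates 1 and 2 and 0.362 and 0.173 in replicates 3 and 4. GL261 lay between the sides, at 6.76 and 6.96 CPM. Its neighbour Tcp11l1, 9615 bases away on the same strand, was separated too, with 58.8, 51.8, 17.4 and 17.5 CPM. Tnc (chromosome 4, 63959785 to 64047015, minus strand), the matrix protein tenascin C found in glioma and in radial glia, was at 27.2 and 75.4 CPM in replicates 1 and 2 and at 0.374 and 0.635 in replicates 3 and 4. GL261, at 0.131 and 0.0654 CPM, was like replicates 3 and 4. Thinned cells with a Tnc UMI made up 5.77% and 13.2% of replicates 1 and 2, against 0.0946% and 0.221% of replicates 3 and 4. Free RNA alone would give 0.120%, 0.448%, 0.00081% and 0.0287% in replicates 1 to 4.

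Mgst1, a microsomal glutathione transferase, was at 113.5, 64.3, 8.20 and 7.48 CPM, and Pdlim4, an actin-associated LIM protein, was at 222, 296, 47.5 and 38.3. Cldn11, the tight junction protein of oligodendrocyte myelin, was at 56, 104 and 15 CPM in replicates 1 to 3 and 6.04 in replicate 4. Abcb4, a phospholipid transporter, was at 34.7, 35.9, 7.62 and 4.27 CPM and under 1 in GL261. Nav2, a neuron navigator protein, was at 41.0, 30.3, 4.97 and 5.43 CPM and far higher in GL261, at 126 and 124. Ccdc8, Serpina3n, Adssl1 and Lrp11 complete the 12, with log2 differences of -2.50, -1.90, -1.88 and -2.0. The genes higher in replicates 1 and 2 thus had GL261 levels above, below and between the sides.

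Across all separated genes the position of GL261 differed by direction. Of the 145 genes higher in replicates 3 and 4, the GL261 mean was nearer to replicates 1 and 2 in 123 (84.8%). Both GL261 libraries lay below all 4 in 87 and above all 4 in 7. Of the 71 genes higher in replicates 1 and 2, the GL261 mean was nearer to replicates 1 and 2 in 43 (60.6%). Both GL261 libraries lay below all 4 in 12 and above all 4 in 25. Among the 8696 genes that were not separated the share nearer to replicates 1 and 2 was 60.6%. In these, GL261 lay below all 4 in 2464 and above all 4 in 2601. The minimum of 10 CPM used the GL261-GSCs libraries alone, so genes low there and high in GL261 were left out. The edgeR test of GL261-GSCs against GL261 called 65 of the 145 genes (44.8%), 64 of them higher in GL261-GSCs. It called 19 of the 71 (26.8%), 8 of them higher. Of the genes that were not separated it called 2713 (31.2%), 1456 of them higher. These shares are a description, since the 4 libraries of the sides enter the test.

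The hypoxia and glycolysis list held 28 genes at 10 CPM or more, of 32 listed. Of these, 14 were separated and higher in replicates 3 and 4, and none was separated the other way, beside 1.63% and 0.797% of all genes. Without the 2-fold requirement, 27 were higher in replicates 3 and 4 without overlap, beside 29.4% of all genes. The other 1, Pfkfb3, was lower without overlap, beside 38.7%. The median log2 difference was 1.23, where the median over all genes was -0.06. These counts and medians describe lists chosen with results of these data known.

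The promoters of the 3 list members with the widest gaps are shown because hypoxia-inducible factors bind the core ACGTG or GCGTG, and the capitals mark every match to either on both strands. Each is the 250 bases in front of an annotated start, read 5′ to 3′ along the gene's strand, from RefSeq on GRCm38.p6. Bnip3 lies at chr7:138909507-138909756 (minus strand), Ankrd37 at chr8:45999851-46000100 (minus strand), and Vegfa, at its outermost start, at chr17:46032378-46032627 (minus strand).
Bnip3: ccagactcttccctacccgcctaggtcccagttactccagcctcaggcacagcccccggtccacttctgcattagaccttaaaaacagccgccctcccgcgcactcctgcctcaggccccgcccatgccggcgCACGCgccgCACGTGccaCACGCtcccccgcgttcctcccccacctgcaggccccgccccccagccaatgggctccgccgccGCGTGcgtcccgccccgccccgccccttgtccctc
Ankrd37: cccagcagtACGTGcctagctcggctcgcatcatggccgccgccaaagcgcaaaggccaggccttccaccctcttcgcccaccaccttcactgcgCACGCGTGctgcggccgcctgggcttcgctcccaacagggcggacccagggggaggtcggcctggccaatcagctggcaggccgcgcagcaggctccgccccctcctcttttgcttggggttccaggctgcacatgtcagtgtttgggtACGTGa
Vegfa: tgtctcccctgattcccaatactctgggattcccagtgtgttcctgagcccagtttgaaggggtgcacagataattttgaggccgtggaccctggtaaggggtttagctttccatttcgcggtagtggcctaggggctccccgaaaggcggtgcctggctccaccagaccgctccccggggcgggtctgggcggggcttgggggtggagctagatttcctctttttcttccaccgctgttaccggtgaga
The Bnip3 window holds 5 matches, of which the palindrome CACGTG counts as 2, and Ankrd37 holds 4, of which 2 overlap by 2 bases. The Vegfa window holds 0. With the outermost start of each gene, a match stood in front of 11 of the 13 separated members found in the table (Ero1l was the other member) and of 9 of the 13 other measured members found there. The core is common, as 38.6% of all genes in the table and 60.6% of those at 10 CPM or more held it at that start. With any annotated start, some of which lie inside the gene, the counts were 13 of 13 and 12 of 13, beside 41.5% and 65.1%. A match describes letters in these windows and not a bound site.

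Among mitochondrial and oxygen-sensing members, Bnip3 (chromosome 7, 138890836 to 138909519, minus strand), which marks mitochondria for removal, was at 19.7, 22.4, 157 and 215 CPM in replicates 1 to 4 and at 10.0 and 13.3 in GL261. Ankrd37, a small ankyrin repeat protein induced by low oxygen, was at 5.27, 5.41, 36.2 and 51.4 CPM. It reached a mean of 10 CPM only through replicates 3 and 4. Egln3, an oxygen-sensing prolyl hydroxylase, was at 14.0, 17.6, 52.1 and 68.2 CPM. The log2 differences were 3.07, 2.80 and 1.86, and in each gene the 2 libraries of a side lay close together. Vegfa, the growth factor of blood vessels, was at 18.3, 20.1, 67.0 and 127 CPM, with GL261 at 16.1 and 18.1.

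The glycolytic enzymes named here lay the same way. Pgk1 (phosphoglycerate kinase) was at 361 and 190.3 CPM in replicates 1 and 2 and at 796 and 879 in replicates 3 and 4. Ldha, which turns pyruvate into lactate, was at 585, 665, 1584 and 1592 CPM, while GL261 stood between the sides at 1080 and 1266. Pfkl, the liver form of phosphofructokinase, was at 80.1, 95.1, 266 and 280 CPM. Aldoc was at 58.5, 75.9, 218 and 297 CPM. Aldoa was separated as well, but its symbol is given to more than 1 identifier and its value is uncertain. Slc16a3, the exporter of lactate, was at 93.1, 88.8, 329 and 264 CPM and at 8.60 and 14.7 in GL261. Gapdh, Pkm, Eno1, Pgam1 and Tpi1 had no overlap between the sides, with log2 differences of 0.62 to 1.19, but their nearest libraries were less than 2-fold apart.

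Collagen and protein folding members rounded off the list. P4ha1 and P4ha2, the prolyl hydroxylases of collagen, were at 75.6, 71.9, 234 and 342 CPM and at 13.7, 13, 42.4 and 57.5 CPM. Ero1l, which forms disulfide bonds in the endoplasmic reticulum, was at 140.4, 98.5, 285 and 610 CPM, so that replicate 4 exceeded replicate 3 by 1.10 on the log2 scale. The glucose transporters Slc2a1 and Slc2a3 did not overlap either but were not separated, with log2 differences of 0.88 and 1.0.

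**Figure D3:**
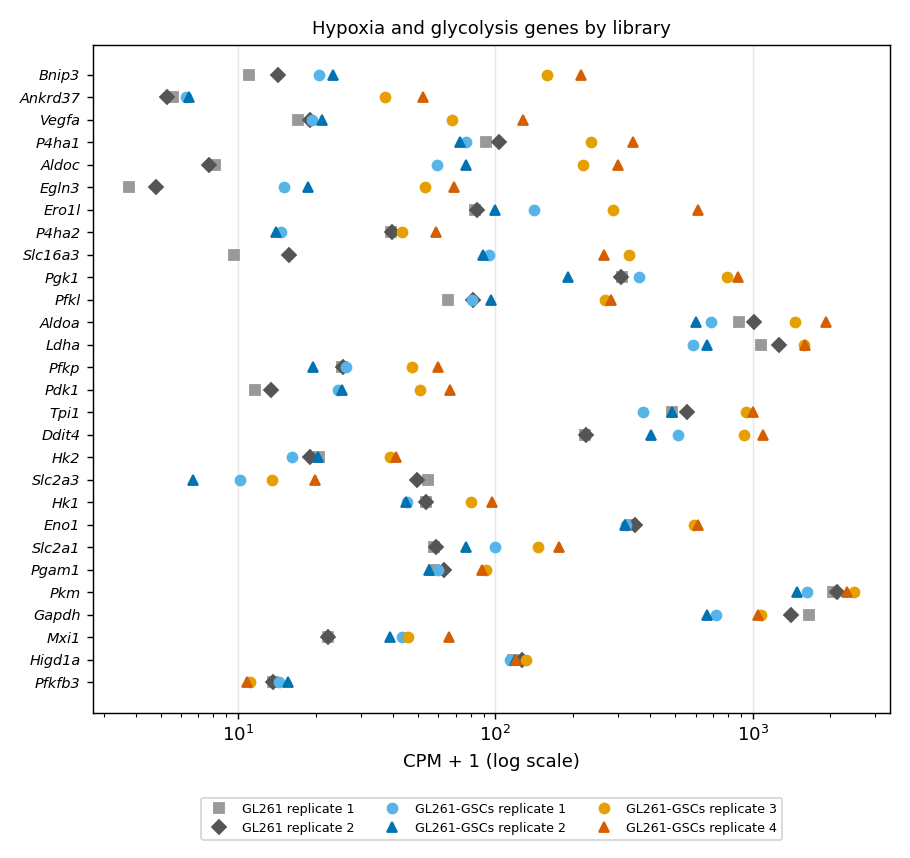
Level of the 28 measured hypoxia and glycolysis genes (CPM + 1, log x axis), ordered from the largest to the smallest log2 difference, with 1 point for each of the 6 libraries. Replicates 3 and 4 lie to the right of replicates 1 and 2 in 27 genes, from Bnip3 (157 and 215 against 19.7 and 22.4 CPM) down to Higd1a, and to the left in Pfkfb3.

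The list was also counted in each cell. In cells thinned to 2000 UMIs, the hypoxia and glycolysis genes gave a mean of 12.1, 11.6, 24.5 and 29.3 UMIs per cell in replicates 1 to 4, and 14.5 and 14.8 in GL261. The 10th percentile of cells was 7, 6, 12 and 15 UMIs and the 90th 18, 17, 39 and 45. The 10th percentile of replicates 3 and 4 thus lay at or above the median of replicates 1 and 2, which was 12 and 11. In cells with under 2.5% mitochondrial UMIs the means were 12.5, 11.9, 25.8 and 30.4, and in the cells above that limit 10.5, 9.73, 21.2 and 27.4. Within each class of cells replicates 3 and 4 were again the higher. Free RNA, which reaches every cell of a library, was not subtracted. For Bnip3 it alone would give a UMI in 0.326%, 0.276%, 2.85% and 6.72% of thinned cells in replicates 1 to 4, where 4.06%, 4.41%, 24.5% and 33.4% held 1. Its part in the means of the list was not tested.

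**Figure D4:**
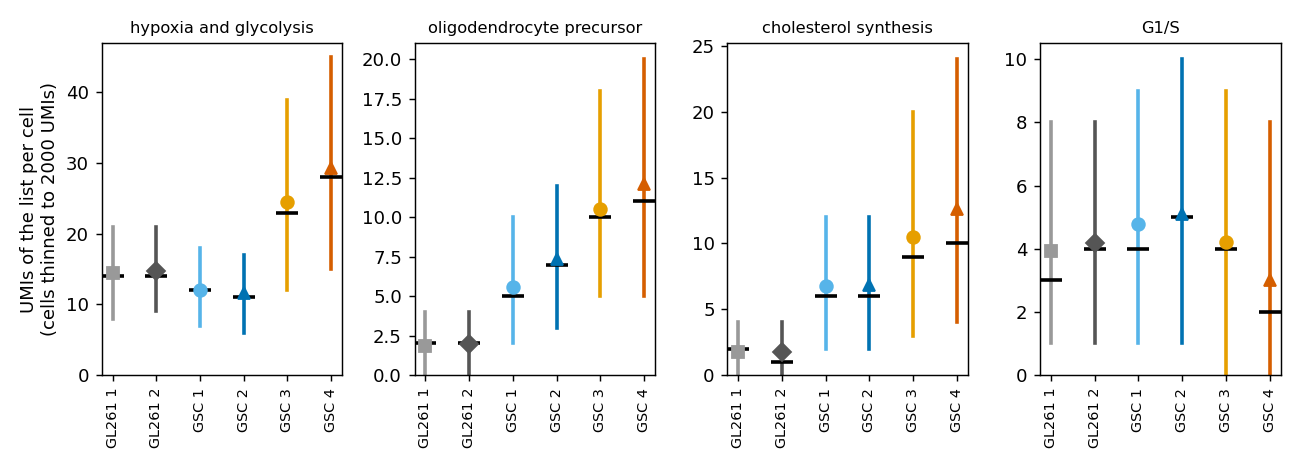
UMIs of 4 gene lists per cell after thinning to 2000 UMIs (y axis) in each of the 6 libraries (x axis, GSC for GL261-GSCs), with points at the mean, black bars at the median and lines from the 10th to the 90th percentile of cells. The means of the hypoxia and glycolysis list are 12.1 and 11.6 in GL261-GSCs replicates 1 and 2 and 24.5 and 29.3 in replicates 3 and 4, and those of the G1/S list are 4.79, 5.10, 4.22 and 3.03.

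Neural adhesion genes lay mostly higher in replicates 3 and 4. Of 40 listed, 10 were at 10 CPM or more, and 9 of them were higher in replicates 3 and 4 without overlap, beside 29.4% of all genes at that level. The median log2 difference was 1.62, and it was 1.23 without replicate 1 and 2.15 without replicate 2, where 7 genes were separated in place of 4. Over all genes the number separated and higher in replicates 3 and 4 was 145 (1.63%), and it was 300 without replicate 2. Cntn1, Ncam1, Ncam2 and Cadm2 were separated. Cadm2, a synaptic adhesion molecule, was at 4.85, 11.9, 35.6 and 76.5 CPM. Lsamp, a membrane-anchored adhesion protein of the limbic system, was at 2.27, 11.9, 19.4 and 40.4 CPM and at 0 in GL261. Ncam1, Cadm2 and Lsamp reached a mean of 10 CPM only through replicates 3 and 4. In mitochondria-poor cells alone, 3 genes were separated and the median was 1.39. Per thinned cell the list gave 0.506, 0.783, 1.46 and 2.11 UMIs in mitochondria-poor cells and 1.25, 2.01, 3.95 and 5.13 in mitochondria-rich cells, so its level moved with that class as well as with the side. Over all cells it gave 0.650, 0.957, 2.15 and 3.15 in replicates 1 to 4. GL261, at 2.05 and 2.21, was above replicates 1 and 2 and near replicate 3.

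Axon guidance genes, the secreted cues and receptors that steer growing axons, showed the same direction. Of 14 measured genes 11 were higher in replicates 3 and 4 without overlap (29.4% of all genes), 4 were separated (1.63% of all genes), and the median log2 difference was 0.98. The secreted cue Sema3a was at 21.1, 22.6, 82.4 and 83.3 CPM. The netrin receptors Dcc and Unc5c were at 6.75, 10.8, 36.5 and 40.2 CPM and at 2.04, 17.4, 40.7 and 41.2 CPM. The ephrin receptor Epha3 was at 0.242, 7.01, 22.9 and 33.7 CPM. For Unc5c and Epha3 the lowest library was replicate 1 and replicate 2 stood between it and the other side. Dcc, Unc5c and Epha3 reached a mean of 10 CPM only through replicates 3 and 4.

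Of 25 measured oligodendrocyte precursor genes, 19 were higher in replicates 3 and 4 without overlap, beside 29.4% of all genes, and Cspg5, C1ql1, Sox10, Nkx2-2, Lhfpl3 and Vcan made up the rest. Those separated were Ptprz1, Cntn1, Pcdh15, Ncan and Serpine2, and the median log2 difference was 0.75. Cntn1 also counts in the neural adhesion list. The 5 separated genes stood beside 1.63% of all genes. The number was 11 without replicate 2 and also without replicate 3, where the count over all genes went from 145 to 300 and 262, and it was 3 in mitochondria-poor cells alone, where that count was 135. Pdgfra, the receptor that drives precursor division, was at 57.0, 88.3, 169 and 183 CPM, a log2 difference of 1.3 without separation. The lineage factor Olig2 was at 401, 411, 788 and 646 CPM and Olig1 at 384, 835, 893 and 869. Sox10, which is needed for the lineage, was at 383, 357, 305 and 335 CPM, and so was level or slightly lower in replicates 3 and 4. Ncan, a matrix proteoglycan, was at 1.78, 2.62, 17.3 and 27.0 CPM. Hapln1, the link protein that joins such molecules to hyaluronan, was at 0.211, 0.110, 23 and 19.8 CPM. Both reached a mean of 10 CPM only through replicates 3 and 4. Ptn, a secreted ligand of Ptprz1, was at 39, 160.3, 336 and 333 CPM. Hapln1 and Ptn come from the list of chondroitin sulfate proteoglycans and glypicans, not the precursor list. Of its 14 measured genes, 7 were higher in replicates 3 and 4 without overlap and 3 lower, beside 29.4% and 38.7%. Ptprz1, Ncan, Hapln1 and Ptn were separated that way, beside 1.63% of all genes. Tnc was separated the other way, beside 0.797%, and the list median was 0.34. Per thinned cell the precursor list gave 5.17, 6.96, 9.09 and 10.2 UMIs in mitochondria-poor cells of replicates 1 to 4. In mitochondria-rich cells it gave 7.335, 9.61, 14.1 and 15.7, so its level moved with that class too. Precursor genes were therefore present on both sides and mostly higher on 1.

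For the next lists, 1.63% of all genes were separated and higher in replicates 3 and 4, and 0.797% in replicates 1 and 2. Among 15 genes of committed oligodendrocytes and myelin, Mog was separated and higher in replicates 3 and 4 (19.6, 32.2, 70.3 and 67.4 CPM), whereas Cldn11 was separated the other way. Among 14 radial glia and astrocyte genes, Aldoc was separated and higher in replicates 3 and 4 and Id3, Gja1 and Tnc in replicates 1 and 2. Id3, a target of BMP signalling that blocks differentiation factors, was at 55.9, 59.1, 22.1 and 23 CPM, and GL261 was far above at 933 and 878. Gja1, the gap junction protein connexin 43, was at 128, 93.3, 44.1 and 45.4 CPM. Of 5 measured neuronal genes 1 was separated each way. Syt1 (synaptotagmin of synaptic vesicles) was at 1.16, 12.4, 52.1 and 76.3 CPM. Tubb3 (neuronal tubulin) ran the other way at 45.8, 24.6, 4.16 and 4.62. Each reached a mean of 10 CPM only through its higher side. Lgals3, the only separated gene of 19 mesenchymal ones, was at 49.1, 21.8, 229 and 205 CPM and above 1200 in GL261. Without replicate 1 the mesenchymal list had 2 genes higher in replicates 3 and 4, and the myelin list 2 in replicates 1 and 2. Without replicate 2 the mesenchymal, myelin and neuronal lists each had 2 higher in replicates 3 and 4. The radial glia and astrocyte list then had 2 each way. Over all genes, those higher in replicates 3 and 4 numbered 214 and 300 in these settings, in place of 145.

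Among 13 measured stem cell regulators 0 were separated, beside 1.63% and 0.797% of all genes. Under library size scaling 1 of 14 was separated, and without replicate 2 it was 1 higher in replicates 3 and 4 and 2 lower. Over all genes the numbers without replicate 2 were 300 higher and 158 lower, in place of 145 and 71. Sox2 was at 81.6 CPM in replicate 1 and at 140.1, 139 and 135 in replicates 2 to 4, so that replicate 1 stood alone. Nes was at 489, 562, 347 and 319 CPM, Vim at 4493, 5033, 4624 and 4505, and Cd44 at 76.9, 61.1, 55 and 53.5. Vim, an intermediate filament gene, thus overlapped between the sides.

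Of 13 measured antigen presentation genes, 9 were higher in replicates 3 and 4 without overlap and 2 lower, beside 29.4% and 38.7% of all genes, and 3 were separated, beside 1.63%. Without replicate 1 the number separated was 5, and that over all genes 214 in place of 145. The 3 are neighbours. Psmb8 and Psmb9, subunits of the immunoproteasome, and Tap2, a peptide transporter, lie within 15763 bases of each other on chromosome 17. Psmb8 was at 36.8, 42.2, 141 and 126 CPM, with GL261 at 129.7 and 94.2. The class I gene H2-K1 was at 60.2, 45.1, 116 and 138 CPM, while B2m, the shared light chain, was lower in replicates 3 and 4 (269, 223, 152 and 138). Of 10 measured interferon-stimulated genes, 5 were higher in replicates 1 and 2 without overlap, beside 38.7% of all genes. In the other direction there was 1, beside 29.4%, and none of the 10 was separated. Their median log2 difference was -0.42. It was -0.18 without replicate 1 and -0.91 without replicate 2, where 4 genes were separated and higher in replicate 1. Without replicate 3, 3 genes were separated and higher in replicates 1 and 2. Over all genes, those separated in that direction numbered 71, and 158 and 188 without replicates 2 and 3.

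Cholesterol synthesis genes were higher in replicates 3 and 4 in 21 of 24 without overlap, beside 29.4% of all genes, and 2, Mvk and Idi1, lay lower there without overlap, beside 38.7%. The median log2 difference was 0.60. Lss and Stard4 were separated, beside 1.63% of all genes, and without replicate 4 only 1 list member was. Lss, which closes the sterol rings, was at 52, 55.2, 119 and 123 CPM and at 15.3 and 13.7 in GL261. Stard4, a carrier of cholesterol between membranes, was at 3.76, 0.605, 21.0 and 22.6 CPM. It reached a mean of 10 CPM only through replicates 3 and 4. Within mitochondria-poor cells the list median was 0.62. Per thinned cell the list gave 5.82, 6.15, 8.28 and 9.48 UMIs in mitochondria-poor cells of replicates 1 to 4. In mitochondria-rich cells it gave 10.9, 11.3, 16.3 and 18.6, so its level moved with that class as well as with the side.

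Genes of DNA replication in G1/S lay lower in replicates 3 and 4, and replicate 4 was the lowest. Of 24, 16 were higher in replicates 1 and 2 without overlap, beside 38.7% of all genes, and 1 was lower, beside 29.4%. None was separated, and the median log2 difference was -0.44. Without replicate 4 it was -0.19, and without replicate 3 it was -0.69, with 3 genes separated and higher in replicates 1 and 2 (188 over all genes, in place of 71). Pcna was at 81.0, 82.8, 59.3 and 44.0 CPM. Genes of G2/M had a median of -0.07, and Mki67, which marks cycling cells, was at 238.2, 238.1, 343 and 283 CPM. Among 20 genes of the ATF4 response and serine synthesis, 11 were higher in replicates 1 and 2 without overlap, beside 38.7% of all genes. In the other direction there were 2, beside 29.4%. Atf3 alone was separated (38.3, 35.3, 15 and 16.7 CPM), beside 0.797% of all genes. The list had 3 separated genes in that direction without replicate 3, and 2 without replicate 2, with 1 the other way. Over all genes that direction then held 188 and 158 in place of 71. Atf3 fell just short of the 2-fold rule in 5 of the alternatives tried, among them library size scaling, where its gap was 0.997.

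Outputs of the ERK pathway were mixed, with a median of -0.05 over 21 genes. Spred3 was separated and higher in replicates 3 and 4 (6.34, 7.60, 17.3 and 20.4 CPM) and Dusp4 separated the other way (27.0, 18.7, 8.14 and 8.26 CPM). Both encode inhibitors of the pathway, and each reached a mean of 10 CPM only through its higher side. These single genes stood beside 1.63% and 0.797% of all genes. In cells under 2.5% mitochondrial UMIs 0 outputs were separated on the side of Dusp4, and without replicate 2 there were 2. Among 16 receptor tyrosine kinases and ligands, 12 were higher in replicates 3 and 4 without overlap, beside 29.4% of all genes, and Kit and Pdgfa were lower without overlap, beside 38.7%. Kitl, Vegfa and Epha3 were separated and higher in replicates 3 and 4. Vegfa also counts in the hypoxia list and Epha3 in the axon guidance list. The number separated in that direction was 3, beside 1.63% of all genes. It was 5 without replicate 2 and 6 without replicate 3, where 300 and 262 of all genes were separated in that direction in place of 145. In the other direction 0 were separated, but 1 was without replicate 2 and 1 without replicate 3. Over all genes that count was then 158 and 188 in place of 71. The insulin receptor gene Insr was at 43.7, 54.0, 86.9 and 135 CPM and Axl at 32.6, 38.6, 77.9 and 90.2. Igf1 was high in 1 library alone, at 54.7 CPM in replicate 1 and 9.31, 11.8 and 9.30 in the others.

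Defining markers of cell types from outside the neural lineage were near 0 in all 4 libraries. The summed level of 5 microglial markers was 0.202 to 0.347 CPM in the 4 libraries, that of 3 endothelial markers 0.347 to 0.886, with Cldn5 at 0 UMIs, that of 4 pericyte and fibroblast markers 0.192 to 0.577, and that of 3 T cell markers 0.0151 to 0.0624. In the longer lists of these cell types, 1 of 12 microglial and macrophage genes (Cd68), 1 of 10 endothelial genes (Flt1), 3 of 10 pericyte and fibroblast genes (Col1a1, Col3a1 and Cspg4) and 0 of 6 T cell genes had a mean of at least 10 CPM, and none was separated. The pericyte and fibroblast genes had a median log2 difference of 1.22. Col3a1 was at 22.4, 180, 203 and 175 CPM, and Cspg4, which oligodendrocyte precursors also make, at 67.7, 83.3, 149 and 207. The part of these genes in the other results was not tested. Of 5 astrocyte markers Aqp4 was at 0, and the sum was 128, 93.3, 44.2 and 45.6 CPM, nearly all of it from Gja1, which was separated. Of 5 neuron markers Rbfox3 was at 0 and the sum was 47.0, 37.0, 56.3 and 81.0 CPM, nearly all of it from Tubb3 and Syt1.

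The libraries within a side also differed by named genes. Replicate 1 stood apart from replicate 2 by Epb41l3 (1.03 against 34.8 CPM), Col3a1 (22.4 against 180), Enah (5.75 against 45.9), Afp (244 against 22.2), Rhox2d (43.6 against 6.51), P2ry1 (43.2 against 6.69) and Prph (71.4 against 16.8). For Epb41l3 and Col3a1 replicate 2 was the nearer to replicates 3 and 4, which were at 70.6 and 88.2 CPM and at 203 and 175. For Afp, the fetal serum protein, replicate 2 was again like replicates 3 and 4 (36.5 and 19.2 CPM), and GL261 lay between at 117.5 and 109. For Rhox2d (54.8 and 58.5 CPM in replicates 3 and 4), P2ry1 (37.7 and 46.8) and Prph (56.1 and 69.1), replicate 1 was the nearer to replicates 3 and 4 and replicate 2 was the lowest of the 4. Replicate 4 exceeded replicate 3 in Col2a1 (366 against 121 CPM) and Chl1 (214 against 92.3), and lay below it in Cldn11. These genes were picked as the largest differences within a side after their values were seen.

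Genes on some chromosomes lay together above or below the mean of the 4 libraries. On chromosome 5 the median over 605 genes was 0.339 in replicate 1, 0.033 in replicate 2, -0.126 in replicate 3 and -0.233 in replicate 4 on the log2 scale. On chromosome 3 it was -0.297 in replicate 1 and 0.183, 0.105 and 0.023 in replicates 2 to 4. Among the autosomes and X, a library lay at least 0.15 from the mean on 5 chromosomes, namely 3, 5, 13, 17 and 18. The 11 genes of the mitochondrial chromosome had medians of -0.152, -0.126, 0.216 and 0.133 in replicates 1 to 4. Per cell, chromosome 3 held a mean of 2.78% of the UMIs in replicate 1 (SD over cells 0.565) and 3.93%, 3.89% and 3.86% in replicates 2 to 4, with 90% of cells of replicate 1 under 3.46%. Chromosome 5 held 9.79%, 8.44%, 7.65% and 7.33%. Replicate 1 therefore stood apart from the other 3 on chromosome 3, and on chromosome 5 the libraries were ordered from replicate 1 down to replicate 4.

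**Figure D5:**
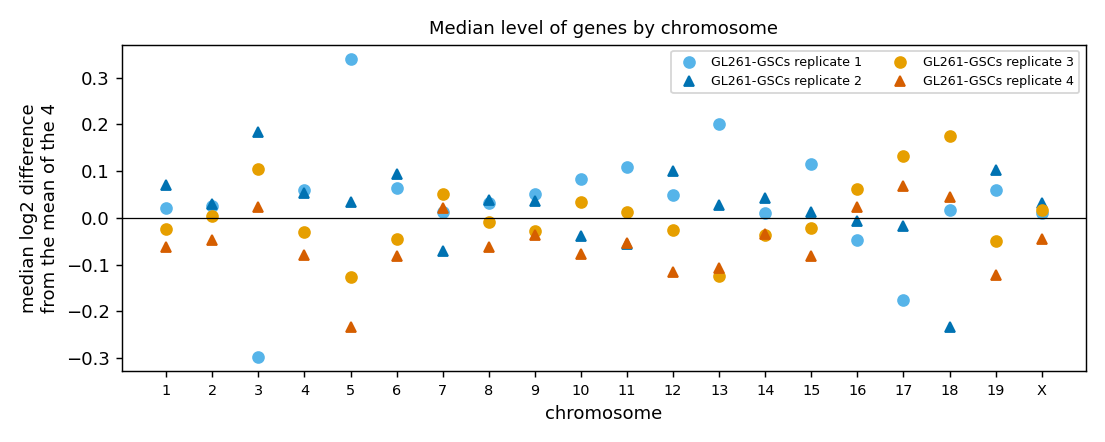
Median log2 difference of each GL261-GSCs library from the mean of the 4 (y axis) over the genes of each chromosome (x axis), for genes with a mean of at least 10 CPM, with 1 point for each library. Replicate 1 stands at 0.339 on chromosome 5 and -0.297 on chromosome 3.

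Separated genes were spread over the genome, and their share of the measured genes differed between chromosomes. Chromosome 17 held 19 genes higher in replicates 3 and 4 and 1 higher in replicates 1 and 2, or 4.42% of its 452 genes in both directions, and chromosome 16 held 15 and 1 (5.30% of 302). Chromosome 10 held 14 and 5 (3.90% of 487) and chromosome 2 held 15 and 8 (3.18% of 724), whereas chromosome 4 held 1 and 3 (0.762% of 525). Over all genes the share in both directions was 2.42%. Chromosome 17 medians were -0.176, -0.017, 0.133 and 0.068 in replicates 1 to 4. Its separated genes include Col11a2, Vegfa, Epcam, Psmb8 and Tap2, and those of chromosome 16 include Ncam2 and Grik1. Grik1, a kainate receptor subunit, was at 0.0302, 3.33, 20.02 and 27.1 CPM. The part of chromosome-wide shifts in the single gene results was not tested.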

How the data were processed

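RNA was measured per cell in 6 libraries. The authors deposited raw UMI counts per gene and barcode, unfiltered, as Cell Ranger 4 output per the file headers and on mm10 per the submitters' processing notes. The sources used here state no other setting. Depth was 80899005 to 121309232 UMIs per library. Groups and replicate numbers came from the titles.

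Counts were summed over called cells (limits in the report) and scaled with TMM in edgeR 4.0.16 (R 4.3.3). Sums over the GL261-GSCs cells held 32313505 to 79801294 UMIs per library. No doublet caller was run. GL261-GSCs were tested against GL261 with glmQLFit and glmQLFTest, filterByExpr and Benjamini-Hochberg adjustment, and with DESeq2 1.42.0 as an alternative. The edgeR script and the separation rule were tested on simulated data. Coordinates came from GENCODE M21 by identifier, of which 54409 (99.9%) matched without version. Where a symbol had several identifiers (94 of them), the one with the most UMIs stood for it.

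The sides, markers, gene lists and members were chosen with earlier results of these data known. Named genes were the 12 largest separations each way at 20 CPM or more (no predicted, mitochondrial or ribosomal genes), the 4 markers, 10 further lineage and control genes, and the most separated gene of each of 33 lists. List members were also named. One alternative, cells under 2.5% mitochondrial UMIs, was chosen after seeing the data. The others were scaling, the CPM minimum, the pseudocount, the UMI and mitochondrial limits, thinning, low count filters, a replicate block and leaving out each library.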

Additional observations from a re-analysis of the deposited data

Results flagged for a closer look

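Of 76 measures examined over the 4 GL261-GSCs libraries for a single library far from the other 3, 2 stood out. Chance alone sets apart about 1 in 20 groups of 4 values. The measures were the named genes, library measures and chromosome medians. Many of the genes were picked for a gap between the sides and can hardly show 1 library far from the other 3. That rate therefore does not carry over to the 76. Sox2 was lowest in replicate 1, at 81.6 CPM, and its gap to the nearest library was 0.911 of the whole range up to 140.1 CPM. Olig1 was lowest in the same library, at 384 CPM, with a gap of 0.886 of the range up to 893 CPM. Both genes lay at near equal levels in replicates 2 to 4, across the sides.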

How the results depend on the processing

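The count of genes separated and higher in replicates 3 and 4 (145) was 58 with a mean of at least 50 CPM and 269 with no minimum, and 136 to 300 without 1 library each (300 without replicate 2 and 262 without replicate 3). The count higher in replicates 1 and 2 (71) was 7 and 149 under the same minimums, 42 with a pseudocount of 5 CPM, and 85 to 188 without 1 library each (188 without replicate 3 and 158 without replicate 2). In cells under 2.5% mitochondrial UMIs the counts were 135 and 58, of which 127 and 56 were among the original genes. Distinct list members separated in either direction numbered 48, and 46 to 83 without 1 library each. Chromosomes with a library at least 0.15 away numbered 5, and 8 at 50 CPM. Of the comparisons of single genes with an alternative, 596 stayed on their side of the 2-fold rule and 9 did not. All were of separated genes. Leaving out a library cannot narrow the gap of such a gene, and another CPM minimum leaves it unchanged. Those comparisons, part of the 596, could therefore not have come out otherwise. Of those of list medians, 156 moved by less than the spread between libraries and 19 by more. Medians near 0 changed sign. That of G2/M (-0.07) was 0.09 and that of Notch genes (0.09) was -0.01 without replicate 4, and that of ERK outputs (-0.05) was 0.02 in cells under 2.5% mitochondrial UMIs. The radial glia and astrocyte median (-0.03) was 0.03 in those cells and 0.02 without replicate 2. The mesenchymal median (0.02) was -0.04 and -0.03 without replicates 1 and 2, and the BMP and TGF-beta median (-0.03) was 0.01, 0.03 and 0.08 without replicates 1, 2 and 3.

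The edgeR count of GL261-GSCs against GL261 (5673) was 6859 with DESeq2 and 1880 to 6373 without 1 library each, with 2049 and 1880 without GL261 replicate 1 or 2. Library size scaling gave 3591 genes higher and 2089 lower, against 3078 and 2595. With a replicate block the count was 6558; GL261 and GL261-GSCs libraries share only a number, and the correlation of deviations was -0.063 for replicates 1 and 0.114 for replicates 2. The sides were chosen from these values and their difference was not tested.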

Other observations

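The genes here are single separated genes outside the lists, picked after their values were seen, and no group of genes was counted or tested for them. The collagen gene Col11a1 was at 212, 201, 577 and 634 CPM in replicates 1 to 4, the collagen gene Col2a1 at 53.3, 52.1, 121 and 366, and Cnmd, which encodes chondromodulin, at 83.1, 86.2, 278 and 317. Plod2, a collagen lysyl hydroxylase, was at 22.9, 36.3, 90.8 and 107 CPM. GL261 was above all 4 libraries for Col2a1 (569 and 572 CPM) and below all 4 for Cnmd (6.67 and 7.27). The epithelial adhesion gene Epcam was at 28.9, 12.6, 87.1 and 89.0 CPM and at 1.27 and 0.736 in GL261.

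Kdm3a, a histone demethylase, was at 34.3, 43.6, 88.6 and 114 CPM, Fam162a at 146, 152, 416 and 408, and the repressor Bhlhe40 at 13.3, 16.1, 42.5 and 74.5. Other single genes were separated the other way. Cryab, a small heat shock protein, was at 1210, 611, 284.5 and 177 CPM, far below GL261 (5643 and 6785), and passed the edgeR test of GL261-GSCs against GL261 with an adjusted p of 0.011. Hmox1, the heme oxygenase, was at 25.7, 41.0, 10.6 and 11.6 CPM, and Mmp14, a membrane-bound protease of the matrix, at 19.8, 20.5, 6.50 and 5.92. Nt5e, the surface enzyme that makes adenosine, was at 51.4, 26.1, 9.96 and 7.80 CPM and near 0 in GL261 (0.219 and 0.131).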
